A study of Mus musculus with 17 samples.

Results

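The comparison described here set microglia of 5xFAD mice with wild-type Trem2 against microglia of normal mice. It covers 11196 genes of the 13501 in the table, namely those with a normalized read count of 10 or more in at least 3 of the 6 libraries of both groups, chosen without regard to any difference between them. The normal group (3 libraries) is labelled as wild type without 5xFAD and without treatment. The 5xFAD group (3 libraries) is labelled Trem2-wildtype 5xFAD, also without treatment. The other 11 libraries of the series are Trem2-knockout 5xFAD microglia (3 libraries) and circulation-derived myeloid cells after bone marrow transplant with PLX5622. The transplanted cells came from Trem2 wild-type or Trem2-knockout donors (4 libraries each), and all recipients are labelled Trem2-knockout 5xFAD. All 11 libraries enter only the estimate of the spread. All cells were live CD45+CD11b+ cells sorted from brain, so that any myeloid cell of the brain, its borders or its vessels could pass the gate. The labels used here give no ages and do not say whether libraries of a group came from separate animals, so the p-values speak only of the spread among these libraries, which may be technical.

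Microglia are the resident macrophages of the brain. In 5xFAD mice, neurons carry mutant human transgenes under the Thy1 promoter that drive amyloid production, and amyloid plaques form to which microglia gather. Around plaques microglia are known to enter a disease-associated state, in which genes for lipid handling, lysosomes and phagocytosis are switched on and some homeostatic genes are turned down. Trem2, a lipid-sensing surface receptor that signals through the adaptor Tyrobp, is known to be needed for the full form of this state.

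Among the genes tested, 340 rose and 114 fell in 5xFAD microglia (3.04% and 1.02% of the genes tested, 4.06% together). Every count of list members called, given below, is to be read beside these shares. Calls rest on limma with a threshold of 0.05 on the Benjamini-Hochberg adjusted p, fitted to log2(value + 1), which is the scale of every change given below as a log2 difference, with its standard error (SE). Such differences understate the change of genes with low counts. The rises were the larger changes: 110 genes rose at least 4-fold and 6 fell as much, and the median change was 1.32 among genes that rose against −0.93 among those that fell. These counts include genes that passed the minimum through 1 group alone. Over all genes tested the median was −0.00.

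The number of calls depended on how the spread was estimated. The calls numbered 815 (529 higher, 286 lower) without knockout 5xFAD library S26, which stood apart from its own group, and 1829 (1008 higher, 821 lower, 9% and 7.33% of genes) in a fit of the 6 libraries alone. A gene that is not called here is therefore not shown to be unchanged. Of the 454 calls, 220 held when any 1 of the 6 libraries was left out (189 higher and 31 lower). Where a gene given with its values lost its call in this way, the libraries and its highest adjusted p without 1 library stand beside it. Both groups lay apart without overlap for 34.8% of all genes tested, called or not, so that separation of 3 libraries from 3 is no result by itself.

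Read totals ran from 16044078 to 28897267 over the 6 libraries (median 19272152). Values below are normalized read counts, given for normal replicates 1, 2 and 3 and then for 5xFAD libraries S22, S23 and S24, whose columns carry the group but no replicate number of their own. The 5xFAD libraries S22 and S23 were the most alike pair (a chi-square of 6.106 for each degree of freedom), against 13.07 to 22.88 in the other pairs of the 2 groups. Reads of mitochondrial genes made up 0.0579% to 0.0826% in normal and 0.120% to 0.141% in 5xFAD libraries, and the part of this difference in the results was not tested. The labelled cell type was carried by its markers: the summed level of the 10 microglia markers was 1199525 to 1285274 in normal and 990431 to 1034094 in 5xFAD libraries, above every other cell type's list. In bulk samples such as these, fewer cells of a type and less RNA per cell cannot be told apart. Tmem119, a microglial membrane protein, read 168308, 160760.4 and 151191 and then 98924, 101085 and 93678, a difference of −0.71 that was not called (adjusted p = 0.0863).

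**Figure D1:**
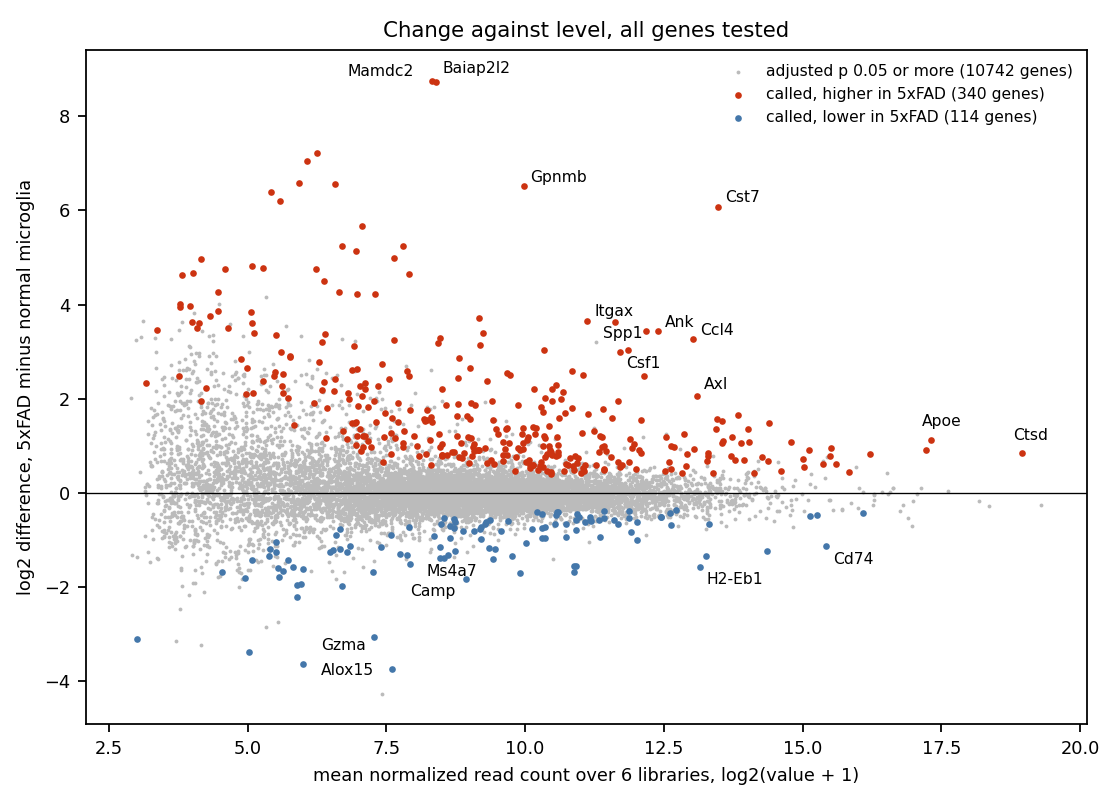
Change against level for the 11196 genes tested. The x axis is the mean normalized read count over 6 libraries as log2(value + 1), the y axis the log2 difference of 5xFAD minus normal microglia, and colours mark the 340 genes called higher, the 114 called lower and the rest; rises reach further from 0 than falls, and the heights of Mamdc2 and Baiap2l2, which were near 0 in normal libraries, depend on the pseudocount.

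Trem2 and Tyrobp were both higher in 5xFAD microglia. Trem2 read 31205, 32384 and 37459 in normal libraries and 51400.2, 53077 and 49346 in 5xFAD libraries, with no overlap and a log2 difference of 0.61 (SE 0.16, adjusted p = 0.0379, lost without any library except normal replicate 3, adjusted p up to 0.142). For Tyrobp the values were 28484, 30866 and 36165 and 61627, 59645 and 63063, a rise of 0.96 (SE 0.20, adjusted p = 0.00701). Hcst (DAP10), the other small adaptor of such receptors, rose by 0.79 (adjusted p = 0.0264, lost without any 1 of the 6 libraries, adjusted p up to 0.104). The kinases, adaptors and phosphatases downstream, such as Syk, Plcg2 and Inpp5d, gave no further call: 3 of the 20 genes of the Trem2 signalling list rose, beside 3.04% of all genes, and 0 fell, with a list median of −0.06. Spi1, which encodes the myeloid transcription factor PU.1, read 9171, 9395 and 9278 and 7368, 7333 and 7483 (−0.33, adjusted p = 0.093).

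After Ank, Cst7 had the smallest p of all genes tested. Cst7 encodes cystatin F, an inhibitor of lysosomal cysteine proteases. Cst7 read 335, 326 and 337 in normal and 21691, 21157 and 24879 in 5xFAD libraries, a log2 difference of 6.08 (SE 0.33, adjusted p = 4e-09). Itgax, the integrin chain CD11c, read 298, 397 and 296 and 4027, 4214 and 4158, a rise of 3.66 (SE 0.25, adjusted p = 7.86e-08). Replicates of Cst7 and Itgax within each group differed far less than the groups did. Their promoters are shown because both are leading rises of the comparison. These are the 250 bases before the transcript start from the RefSeq table (GRCm38.p6), plus strand for both, at chr2:150570165-150570414 for Cst7 and chr7:128129300-128129549 for Itgax, 5′ to 3′, with GGAAGT, a core of ETS-family sites such as those of PU.1, in capitals on either strand.
Cst7: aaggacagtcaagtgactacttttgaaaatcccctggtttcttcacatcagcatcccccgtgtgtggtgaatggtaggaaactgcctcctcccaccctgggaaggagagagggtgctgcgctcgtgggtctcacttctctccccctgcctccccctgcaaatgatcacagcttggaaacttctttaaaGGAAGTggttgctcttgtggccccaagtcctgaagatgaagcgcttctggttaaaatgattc
Itgax: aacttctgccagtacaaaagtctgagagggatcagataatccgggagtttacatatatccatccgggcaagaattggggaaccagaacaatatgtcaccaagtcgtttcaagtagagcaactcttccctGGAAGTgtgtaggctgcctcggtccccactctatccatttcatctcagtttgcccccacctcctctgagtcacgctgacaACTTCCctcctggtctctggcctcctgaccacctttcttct
The Cst7 window holds the motif 62 bases before the start, and the Itgax window holds it 121 and 41 bases before, the latter on the other strand. GGAAGT stood in 23.8% of 11594 promoters of the same length over 9017 tested genes, in 19.8% of 353 promoters of genes that rose and in 37.8% of 98 of genes that fell. Such a match is a description of letters and shows no binding.

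The other leading rises covered surface, secreted and lipid genes. Gpnmb, a transmembrane glycoprotein of lysosome-rich macrophages, read 22.7, 8.04 and 44.7 and then 1668, 1771 and 2507, a rise of 6.51 (SE 0.88, adjusted p = 0.000156). Ank, a pyrophosphate transporter, went from 1031, 886 and 828 to 9526, 9553 and 10630.5 (3.44, SE 0.12, adjusted p = 7.49e-12). Adamts1, a secreted metalloproteinase, read 205, 338 and 302 and 1942, 2056 and 2893, a rise of 3.03, and Chst2, a sulfotransferase of glycans, rose by 3.14 from 231, 93.5 and 72.3 to 963, 943 and 1201. Genes without overlap between the groups were chosen for the plot of the largest changes, so the separation of the libraries there is no finding.

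**Figure D2:**
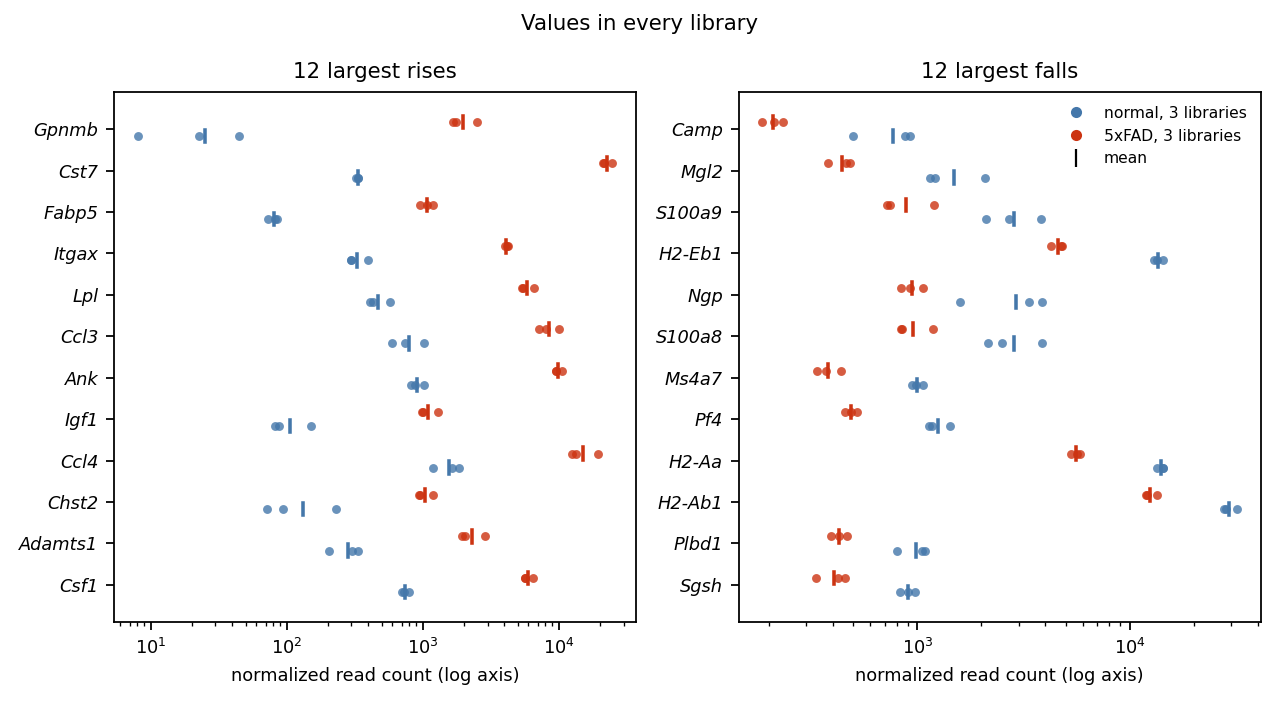
Normalized read counts in every library for the 12 largest called rises and the 12 largest called falls among genes without overlap and above the median level, on a log axis. Points are libraries, blue for normal and red for 5xFAD, and bars are group means; Cst7 moves from 326 to 337 in normal libraries to between 21157 and 24879, while the falls, such as H2-Eb1, are smaller.

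Some genes were close to absent in normal microglia and readily measured in 5xFAD microglia. A search made after values were seen found 15 called genes under 10 in every normal library and at 50 or more in every 5xFAD library. By that rule all 15 passed the minimum through the 5xFAD libraries alone, so the search itself set their direction. Mamdc2, a secreted proteoglycan, read 2.27, 0 and 0 in normal libraries and 593, 603 and 725 in 5xFAD libraries (adjusted p = 1.63e-05). Baiap2l2, a membrane-bending protein of the BAR family, read 0, 1.00 and 0.950 and 595, 664 and 744 (adjusted p = 2.9e-06). Such genes appear from almost no reads, so that a fold change would rest on the pseudocount and is not given. No read was counted in any normal library for 3 of them: Dkk2, an extracellular modulator of Wnt signalling, Lgi2, a secreted leucine-rich repeat protein, and Plxna2, a semaphorin receptor. Lgi2 stood at 110.1, 159.7 and 182 in the 5xFAD libraries, Dkk2 at 149, 106 and 141 and Plxna2 at 72.7, 82.1 and 96.4. Dcstamp, a fusion protein of osteoclasts, read 9.06, 6.03 and 3.81 and 170.0, 132 and 174, and the calcium-permeable channel Trpm1 0, 1.00 and 2.85 and 160.2, 204 and 195. Cck, Etl4, Fam189a2, Tcap, Tmem163, Fabp3, Atp6v0d2 and Myh11 complete the set. In the other direction 1 gene met the reversed rule: Cd300e, an activating receptor of monocytes, read 54.4, 50.2 and 68.5 in normal and 3.93, 2.26 and 9.77 in 5xFAD libraries (adjusted p = 0.0106, lost without S23, adjusted p up to 0.0667).

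Surface receptors and adhesion molecules linked to the disease-associated state form a list that was drawn up with that state in mind, so it is no independent sign of its direction. Of 23 tested, 15 rose and 0 fell, with a median of 0.95. Axl, a receptor tyrosine kinase for apoptotic cells, read 3617, 3341 and 3280.0 and 14171, 14160.2 and 14292 (2.06, SE 0.17, adjusted p = 7.79e-07). Clec7a, the beta-glucan receptor dectin-1, read 652, 865 and 887 and 6345, 5268 and 8251 (3.03, SE 0.50, adjusted p = 0.000951), with S24 the highest and S23 the lowest of the 5xFAD libraries. Smaller rises were those of Siglecf (1.71), a sialic acid binding inhibitory receptor, Cd83 (1.20), Cadm1 (1.14), a cell adhesion molecule, and Tlr2 (0.66), a receptor for bacterial lipopeptides. Lilrb4a, an inhibitory receptor of myeloid cells, rose by 1.62 (lost without normal replicates 2, 3, S22 or S24, adjusted p up to 0.108), and Cd68, a lysosomal glycoprotein of macrophages, by 0.55 (lost without normal replicate 1, adjusted p up to 0.0581). The tetraspanins Cd63 (1.06) and Cd9 (0.92) were called with all libraries, and lost the call without normal replicate 1 or S24 and without any 1 of the 6 libraries respectively (adjusted p up to 0.0581 and 0.169). Of the 15 rises, 10 held when any 1 library was left out.

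Regulators of actin were among the calls. Myo1e, a membrane-binding myosin, read 471, 752 and 715 and 3407, 3449 and 3929.6 and rose (adjusted p = 7.79e-07). Capg, an actin capping protein, read 1185, 1228 and 1229 and 4167, 4211 and 4182 (1.79, SE 0.21, adjusted p = 4.78e-05), and Vcl (vinculin) rose by 0.74. With Itgax and Myo5a (1.00, lost without normal replicate 2, S22 or S23, adjusted p up to 0.11) these were 5 of 33 integrin and cytoskeleton genes that rose, and 0 fell (median 0.08). Lgals3bp, a galectin-binding glycoprotein on the list of tetraspanins and annexins, read 6192, 6681 and 8091 and 21421, 20383 and 24476 (1.67, SE 0.16, adjusted p = 3.46e-06), and Lgals1 (galectin-1) fell by 0.95 (lost without any library except normal replicate 2, adjusted p up to 0.12). On that list 4 of 25 rose and 1 fell, beside 3.04% and 1.02% of all genes.

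A mixed list of growth factors, cytokines and related, mostly secreted proteins gave 11 rises and 0 falls among 26 (median 0.92). Csf1, a ligand of the receptor on which microglia depend for survival, read 711, 732 and 793 and 5639, 5646 and 6502, a rise of 2.99 (SE 0.33, adjusted p = 1.98e-05). Igf1, insulin-like growth factor, read 151, 87.4 and 81.8 and 1000.3, 996 and 1298 (3.40, SE 0.53, adjusted p = 0.000618). Sulf2, an extracellular sulfatase acting on heparan sulfate, rose by 1.95, Tnfsf8 (CD30 ligand) by 2.73, Gdf15, a stress-induced cytokine, by 3.35, Osm (oncostatin M) by 1.25 and Fgf13 by 1.51. Tnf, the inflammatory cytokine, read 130.3, 496 and 217 and 1218, 1204 and 1787 (2.51, SE 0.44, adjusted p = 0.00179), with a wide spread among the normal libraries. Vegfa rose by 2.35 (lost without any library except normal replicate 3, adjusted p up to 0.136). Spp1 (osteopontin) shows what the shared spread does to a call. Its values of 540.3, 405 and 506 and 4049, 3794 and 5688 did not overlap, and the difference of 3.21 had an adjusted p of 0.109 with all 17 libraries and of 8.08e-08 in the fit of the 6 libraries. Among the interleukins, Il1b read 271, 628 and 617 and 1124, 1000.3 and 1177 (1.22, adjusted p = 0.0623). None of the 16 interleukin 1 and inflammasome genes tested was called by limma with all libraries; 3 were higher and 0 lower in the fit of the 6 libraries, and 4 had an unadjusted p under 0.05.

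Chemokine ligands gave 3 rises and 0 falls among 18, beside 3.04% and 1.02% of all genes (median 0.44). Ccl3, an attractant of monocytes and T cells, read 599, 1029 and 739 and 8104, 7212 and 10036 (3.44, SE 0.41, adjusted p = 4.53e-05). Ccl4, its close relative, read 1186, 1867 and 1638 and 13518, 12447 and 19367 (3.27, SE 0.41, adjusted p = 8.78e-05). Ccl6 rose by 1.57 from 5557, 6023 and 5322 to 16114, 15957 and 18274. All 3 are on chromosome 11 and are CC chemokines. Ccl2 gave 0.67 (adjusted p = 0.28) and Cxcl10, an interferon-induced chemokine, 1.42 (adjusted p = 0.0532). On the receptor side 4 of 30 rose and 1 fell, beside the same shares of all genes. Ccrl2, a non-signalling chemerin-binding receptor, read 470.1, 686 and 666 and 2448, 2463 and 3066 (2.14, SE 0.28, adjusted p = 9.96e-05), and Il3ra, a chain of the interleukin 3 receptor, rose by 1.95. Il1r1, the signalling receptor of interleukin 1, rose by 2.18 (lost without normal replicate 2, S22 or S24, adjusted p up to 0.0981). Ccr1, a receptor of Ccl3, fell by 0.81 (lost without normal replicate 1, S22, S23 or S24, adjusted p up to 0.128). Cx3cr1, the fractalkine receptor of resting microglia, read 88829, 86585 and 84508 and 71919.8, 75082 and 69347 (−0.27, adjusted p = 0.451).

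Lysosomal genes were read as proteases, other hydrolases and the proton pump. Among cathepsins and cystatins 7 of 14 rose and 0 fell (median 0.49). Ctsd (cathepsin D) was among the most abundant transcripts of these cells and read 356139, 380879 and 357147 and 653670.3, 631309 and 675157, a rise of 0.84 (SE 0.15, adjusted p = 0.00243). Ctsb rose by 0.91 from 105918, 110776 and 102619 to 198676, 194883 and 208263, Ctsz by 0.83 and Ctse, an aspartic protease at low level, by 2.27. Ctsl (0.72) and Ctsa (0.44) lost their calls without any 1 of the 6 libraries (adjusted p up to 0.142 and 0.141). Of 40 lysosomal hydrolases and membrane proteins, 9 rose and 1 fell (median 0.28). Enzymes that cleave sugars from lipids and proteins rose: Gla by 1.76, Gusb by 0.79, Glb1 by 0.67 and Hexa by 0.61, and Npc2, which carries cholesterol out of lysosomes, by 0.70. Sgsh, which degrades heparan sulfate, fell by 1.17, from 827, 977 and 903 to 456, 423 and 333 (adjusted p = 0.0149, lost without normal replicate 2 or S24, adjusted p up to 0.0854). In the proton pump 2 of 18 subunits rose: Atp6v0d2, a subunit typical of osteoclasts and macrophages, from 0, 1.00 and 0 to 87.5, 78.3 and 114 (adjusted p = 0.00508), and Atp6v1a by 0.79 (lost without normal replicates 1, 2, S22 or S24, adjusted p up to 0.0847). Autophagy genes gave 1 rise of 22, that of the receptor Optn (1.84, lost without any library except normal replicate 1, adjusted p up to 0.154), a share near the 3.04% of all genes that rose.

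Lipid uptake and storage showed a few large rises on a list whose median was 0.32, with 7 of 31 higher and 1 lower. Lpl, lipoprotein lipase, read 409, 433 and 574 and 5517, 5384 and 6613 (3.64, SE 0.39, adjusted p = 1.8e-05). The fatty acid carrier Fabp5 read 82.7, 85.4 and 73.2 and 951, 1082 and 1184 (3.72, adjusted p = 0.000533), and its relative Fabp3 4.53, 8.04 and 4.76 and 187, 202 and 332 (adjusted p = 0.000266). Fabp3 passed the minimum through the 5xFAD libraries alone, which set its direction. Acaca, the enzyme that commits acetyl-CoA to fatty acid synthesis, read 48.7, 65.3 and 112 and 417, 378 and 416 (2.49, adjusted p = 0.000156). Soat1, which esterifies cholesterol, rose by 0.76 and Plin2, a lipid droplet coat protein, by 0.64. Cd36, a fatty acid and scavenger receptor, went the other way, from 596, 614 and 581 to 276, 205 and 287 (−1.23, SE 0.21, adjusted p = 0.00164).

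Apoe, the main lipoprotein of brain lipid transport, read 111538, 104575 and 91272 and 217208, 234867 and 220777, a rise of 1.13 (SE 0.20, adjusted p = 0.00198). Ch25h, which makes 25-hydroxycholesterol, read 61.2, 60.3 and 70.4 and 542, 636 and 740.3 (3.29, SE 0.38, adjusted p = 3.9e-05). Apoc4, an apolipoprotein encoded beside Apoe, read 0, 3.01 and 3.81 and 34.4, 25.6 and 28.6 (adjusted p = 0.00302). They were among 4 rises and 1 fall in 19 genes of cholesterol efflux (median 0.11); Lpcat3, a phospholipid-remodelling enzyme, fell by 0.52 (lost without any library except normal replicate 1, adjusted p up to 0.116). Of 25 sterol synthesis genes 2 rose, Sqle by 1.59 (lost without normal replicate 2, S22 or S23, adjusted p up to 0.0929) and Hmgcs1 by 0.64 (lost without any 1 of the 6 libraries, adjusted p up to 0.169). The list's median was 0.49, 22 of its members had a positive difference, and 12 were called higher and 1 lower in the fit of the 6 libraries.

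Glycolytic genes were called at many steps, but not at those of hexokinase and phosphofructokinase. Hk1, Hk2 and Hk3 gave −0.30, −0.02 and −0.19, and Pfkl, Pfkp and Pfkm 0.54, −0.39 and −0.52. The smallest limma adjusted p among these was 0.103, for Pfkl. Of 24 glycolytic enzymes and transporters 13 rose and 0 fell (median 0.57), and 5 of these rises held without any 1 library. Slc2a1, the glucose transporter GLUT1, read 1904, 2217 and 1796 and 3489, 3461 and 3978 (0.89, adjusted p = 0.00236). Pkm, pyruvate kinase, read 11048, 11181 and 10304 and 21534, 22917 and 24047 (1.07, SE 0.16, adjusted p = 0.000556), and Slc16a3, a lactate exporter, rose by 0.97. Upstream enzymes that rose were Gpi1 by 0.60 (lost without any library except normal replicate 2, adjusted p up to 0.1), Aldoa by 0.69 (lost without normal replicate 3 or S24, adjusted p up to 0.0624) and Tpi1 by 0.99. Of the later enzymes Gapdh rose by 0.68 (lost without normal replicate 1, adjusted p up to 0.0581), Pgk1 by 0.74 (lost without any library except normal replicate 1, adjusted p up to 0.0709), Pgam1 by 0.46 (lost without any library except S23, adjusted p up to 0.124) and Eno1 by 0.43 (lost without any 1 of the 6 libraries, adjusted p up to 0.147). Ldha, which turns pyruvate into lactate, read 7369.7, 7758 and 7735 and 12419, 11413 and 12993 (0.69, lost without any 1 of the 6 libraries, adjusted p up to 0.137). The lactate and pyruvate carrier Slc16a1 rose by 0.77 (lost without normal replicates 1, 3, S22 or S23, adjusted p up to 0.0763). Slc2a6, a glucose transporter family member of lysosomes, rose by 1.64. None of the 8 pentose phosphate genes was called by limma (0 had an unadjusted p under 0.05, and 0 were higher and 1 lower in the fit of the 6 libraries). Of 39 nuclear-encoded subunits of the respiratory chain 1 rose, Ndufa1 (0.93, lost without any library except normal replicate 3, adjusted p up to 0.112), which is near the 3.04% of all genes that rose, and the list's median was 0.01.

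Hypoxia genes gave 3 rises of 19, beside 3.04% of all genes (median 0.20). Hif1a, the inducible subunit of the hypoxia factor, read 2079.7, 2069 and 2509 and 6177, 5687 and 7622 (1.54, SE 0.27, adjusted p = 0.00168). Egln3, a prolyl hydroxylase that marks this factor for degradation and is among its usual targets, read 12.5, 36.2 and 11.4 and 434, 432 and 508 (4.64, SE 0.51, adjusted p = 2.05e-05). Promoters of the glycolytic genes Pgk1 and Ldha are shown for the letters ACGTG, the core of hypoxia response elements, which is also part of the E-box CACGTG, so that the counts of these motifs overlap. They are 250-base windows from RefSeq (GRCm38.p6, plus strand) at chrX:106186850-106187099 for Pgk1 and chr7:46845554-46845803 for the first of 2 Ldha starts, 5′ to 3′, with the motif on either strand in capitals.
Pgk1: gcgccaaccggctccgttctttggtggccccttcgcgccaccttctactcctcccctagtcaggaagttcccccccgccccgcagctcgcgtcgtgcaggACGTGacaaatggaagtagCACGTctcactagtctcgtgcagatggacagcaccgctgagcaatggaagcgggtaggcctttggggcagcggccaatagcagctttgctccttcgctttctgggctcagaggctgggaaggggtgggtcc
Ldha: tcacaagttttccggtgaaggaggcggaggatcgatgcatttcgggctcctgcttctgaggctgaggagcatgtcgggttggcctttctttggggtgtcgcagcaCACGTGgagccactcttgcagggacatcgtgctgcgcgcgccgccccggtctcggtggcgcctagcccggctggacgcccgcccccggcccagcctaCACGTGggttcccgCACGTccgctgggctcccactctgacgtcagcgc
ACGTG stood in 15 of 35 promoters of the glycolysis list (42.9%), in 25.5% of promoters of all genes that rose and in 21.6% of all promoters. The second Ldha window holds no match.

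Immediate early genes, which are induced within minutes by signals and also by tissue dissociation, rose in 12 of 25 cases and fell in 0 (median 1.02). Both groups were sorted by the labelled protocol, and a part of dissociation in this result was not tested. Atf3, a stress-induced transcription factor, read 919.8, 1792 and 1509.7 and 6859, 7091 and 8909 (2.48, SE 0.37, adjusted p = 0.000371). Egr2 read 86.1, 238 and 119.9 and 724, 647 and 838 (2.43, SE 0.33, adjusted p = 0.000156). Fos rose by 1.53 from 4574, 8208 and 6055 to 16872, 17019 and 19022, Dusp1, a phosphatase that switches off MAP kinases, by 1.48, Klf4 by 1.90, Ier3 by 2.02, Btg2 by 0.84 and Zfp36, which destabilises cytokine mRNAs, by 1.11. In the normal group replicate 1 had the lowest value for Atf3, Egr2 and Fos and replicate 2 the highest, while the 5xFAD libraries lay above all of them. Fosb gave 1.02 (adjusted p = 0.0716).

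Transcription factors of activation rose in 6 of 29 cases and fell in 1. Bhlhe40, a repressor linked to lysosome and lipid genes in macrophages, read 173, 75.4 and 92.3 and 763, 738 and 840.0 (2.86, SE 0.34, adjusted p = 4.15e-05), and its relative Bhlhe41 rose by 0.59 (lost without any 1 of the 6 libraries, adjusted p up to 0.196). Myc rose by 0.91 (lost without normal replicate 3 or S23, adjusted p up to 0.0645) and Id2 by 0.87 (lost without any library except normal replicate 2, adjusted p up to 0.124), whereas Ahr, the aryl hydrocarbon receptor, fell by 1.03 (lost without normal replicates 2, 3, S23 or S24, adjusted p up to 0.106). Mitf and Tfeb, regulators of lysosome genes, were not called (0.47 and −0.30, adjusted p = 0.503 and 0.374). In the NF-kB list the rises were those of feedback regulators: Nfkbiz from 370.4, 669 and 524 to 2149, 2355 and 2978 (2.28, adjusted p = 8.12e-05), Tnfaip3 (A20) by 1.32, Nfkbia by 0.97 and Nfkbid by 1.04 (lost without any 1 of the 6 libraries, adjusted p up to 0.124). The subunit genes Nfkb1 and Nfkb2 gave −0.33 and 0.17 (adjusted p = 0.171 and 0.763), and Cd40, a receptor target of the pathway, fell by 1.24 (lost without normal replicate 3 or S23, adjusted p up to 0.0577). In all 4 of 20 rose and 1 fell, with a median of −0.14.

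Type I interferon genes mostly had positive differences: 6 of 35 rose, 0 fell, 34 had a positive difference and the median was 0.83. In the fit of the 6 libraries 23 were called higher and 0 lower. Oasl2, an antiviral oligoadenylate synthetase-like protein, read 420.2, 411 and 525 and 1099.6, 1119 and 1304 (1.38, SE 0.20, adjusted p = 0.000337). Usp18, which removes ISG15 and dampens the receptor, read 344, 301 and 561 and 830.3, 920.5 and 1293 (1.36, SE 0.26, adjusted p = 0.00407). Oas1a rose by 1.24 (lost without normal replicates 1, 2, S23 or S24, adjusted p up to 0.0914), Ifit2 by 1.89 (lost without any library except normal replicate 3, adjusted p up to 0.119) and Mx2 by 1.16 (lost without any library except S24, adjusted p up to 0.2). Ifit1 gave 1.09 (adjusted p = 0.395). The Oas1a promoter is shown because its gene rose and its window carries the interferon-stimulated response element. The element was sought on either strand and found only on the strand printed. The window lies on the minus strand at chr5:120907526-120907775 (GRCm38.p6, RefSeq), printed 5′ to 3′ with the element in capitals.
Oas1a: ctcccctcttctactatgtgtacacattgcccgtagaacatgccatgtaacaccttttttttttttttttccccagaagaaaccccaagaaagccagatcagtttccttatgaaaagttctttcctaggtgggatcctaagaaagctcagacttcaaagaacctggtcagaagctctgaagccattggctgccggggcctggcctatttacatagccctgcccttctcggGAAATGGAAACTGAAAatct
These overlapping matches began 20 and 14 bases before the start. The element stood in 12 of 31 promoters of the interferon list (38.7%), in 2.71% of all promoters and in 2.27% of those of genes that rose. Antigen presentation by MHC class I, which interferon can raise, had 1 rise among 21 genes (median 0.19), a share near the 3.04% of all genes: H2-D1, a classical class I heavy chain, read 32257, 34126 and 35011 and 57555, 54739.5 and 62554 (0.78, adjusted p = 0.0113, lost without normal replicate 1 or S24, adjusted p up to 0.0631). B2m gave 0.77 (adjusted p = 0.174) and H2-K1 0.43 (adjusted p = 0.18). Near-identical class I genes may share reads, and how the counting split them is not given in the sources used here.

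Of 13 MHC class II genes 4 fell and 1 rose, beside 1.02% and 3.04% of all genes. H2-Eb1, a beta chain that presents peptides to CD4+ T cells, read 13445, 12947 and 14266 in normal and 4257, 4730.4 and 4769 in 5xFAD libraries, a change of −1.56 (SE 0.20, adjusted p = 9.96e-05). H2-Aa fell by 1.33 from 14286, 13414 and 14249 to 5258, 5609 and 5815, H2-Ab1 from 27761, 28352 and 31889 to 11951, 12056 and 13339.9 (−1.24), and Cd74, the invariant chain that escorts class II molecules, from 62116, 61872 and 56789.8 to 27144, 27772 and 27895 (−1.13). All 4 falls held when any 1 library was left out. The spread within each group was small beside these differences. H2-Ob, part of the chaperone that restrains peptide loading, rose by 0.44 (lost without any library except normal replicate 3, adjusted p up to 0.2), and Ciita, the master activator of class II genes, read 153, 145 and 117 and 62.9, 108 and 76.8 (−0.76, adjusted p = 0.169). The promoters of H2-Eb1 and H2-Aa are shown because these genes fell together; each is a 250-base RefSeq window (GRCm38.p6) printed 5′ to 3′, at chr17:34305617-34305866 on the plus strand for H2-Eb1 and chr17:34287824-34288073 on the minus strand for H2-Aa, with ATTGG, the core of the Y box of class II promoters, in capitals on either strand. This motif was added after the values were seen.
H2-Eb1: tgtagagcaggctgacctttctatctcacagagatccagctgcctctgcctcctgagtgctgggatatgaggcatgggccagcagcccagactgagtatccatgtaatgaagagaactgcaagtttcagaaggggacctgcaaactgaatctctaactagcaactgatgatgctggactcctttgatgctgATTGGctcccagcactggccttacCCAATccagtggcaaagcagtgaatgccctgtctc
H2-Aa: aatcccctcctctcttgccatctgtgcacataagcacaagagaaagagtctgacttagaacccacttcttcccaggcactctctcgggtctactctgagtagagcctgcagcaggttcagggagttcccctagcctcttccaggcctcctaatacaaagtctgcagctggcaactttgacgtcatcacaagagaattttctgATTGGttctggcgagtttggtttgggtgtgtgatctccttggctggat
ATTGG lay 59 and 35 bases before the start of H2-Eb1, the latter on the other strand, and 48 bases before that of H2-Aa. It stood in 7 of 10 promoters of the class II list and in 35.2% of all promoters.

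Markers of border-associated macrophages, which line the meninges and vessels and carry class II molecules, moved with class II. Of 16 markers 6 fell and 0 rose (median −0.90), and their summed level was 19546 to 30139 in normal and 13775 to 15639.5 in 5xFAD libraries, with none of the markers at 0 in all 6. Much of that sum was Stab1, which read 13117, 15352 and 8090.5 and then 7803, 8642 and 7590. Stab1 was not called (−0.56, adjusted p = 0.403 by limma). Pf4, a chemokine of these cells, read 1426, 1137 and 1169 and 454, 488 and 519 (−1.35, SE 0.18, adjusted p = 0.000158). Ms4a7 read 1063, 985 and 944 and 372, 335 and 436 (−1.39, SE 0.22, adjusted p = 0.000793), and Mgl2, a galactose-binding lectin, 2077, 1143 and 1213 and 381, 463 and 484 (−1.69, adjusted p = 0.00389). Falls were also called for Clec4n (−1.31), Mrc1, the mannose receptor (−0.79, lost without normal replicate 1 or S24, adjusted p up to 0.0629), and Clec10a (−1.39, lost without any library except normal replicate 3, adjusted p up to 0.195). Normal replicate 1 stood high for Mgl2, Mrc1 and Clec10a. Cd163, a haemoglobin receptor, gave −0.83 (adjusted p = 0.328). The part of border macrophages in the fall of class II genes was not tested.

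Some neutrophil genes fell. Camp, S100a9, S100a8 and Ngp, which encode granule and calcium-binding proteins of neutrophils, made up the 4 falls among 15 markers (median −1.37). Camp read 878, 921 and 498 and 233, 211 and 186 (−1.82, adjusted p = 0.0133, lost without normal replicates 1, 2 or S24, adjusted p up to 0.0736). S100a9 read 2686, 3806 and 2091 and 743, 720.1 and 1199 (−1.69, adjusted p = 0.0192, lost without normal replicates 1, 2, S22 or S23, adjusted p up to 0.113), S100a8 fell by 1.54 (lost without any 1 of the 6 libraries, adjusted p up to 0.204) and Ngp fell by 1.54 (lost without any library except normal replicate 3, adjusted p up to 0.202). None of these calls held under every omission of 1 library. The summed level of the list was 19817 to 33099 in normal and 15502 to 18296 in 5xFAD libraries. Much of that sum was Csf3r, which overlapped between the groups at 10586, 14129 and 11186 and then 11345, 11125 and 12883. Plbd1, a granule phospholipase of myeloid cells, fell by 1.18 from 1049, 1087 and 805 to 427, 394 and 465 (adjusted p = 9.96e-05).

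Other lymphoid and myeloid markers gave fewer calls. In the monocyte list 1 of 16 fell, beside 1.02% of all genes (median −0.87). It was Spn (CD43), from 63.4, 99.5 and 86.6 to 24.6, 27.9 and 28.6 (−1.56, adjusted p = 0.00676). Ccr2 read 601, 525 and 692 and 298, 305 and 335 (−0.95, adjusted p = 0.132). T and NK cell markers gave 2 falls of 11, beside the same 1.02%. These were the cytotoxic genes Prf1, from 71.4, 177 and 95.1 to 1.97, 6.78 and 26.7 (adjusted p = 0.00919, lost without normal replicate 2 or S22, adjusted p up to 0.0692), and Gzma, from 213, 333 and 277 to 25.6, 21.8 and 56.0 (adjusted p = 0.0177, lost without normal replicates 2, 3, S22 or S23, adjusted p up to 0.0948). Dendritic cell markers, with a summed level of 50584 to 57715 in normal and 44129 to 45143 in 5xFAD libraries, gave no call among 12 by limma (5 at an unadjusted p under 0.05, and 1 higher and 2 lower in the fit of the 6 libraries). Much of that sum was Siglech, which is also on the list of microglia markers. It read 28640 to 36543 in normal and 27890 to 29716 in 5xFAD libraries. Of 4 B cell markers 1 rose, Cd22, which is also on the list of inhibitory receptors.

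Some markers of vessel walls were called higher in 5xFAD libraries. Of 9 pericyte and smooth muscle markers 4 rose and 0 fell (median 2.70), with a summed level of 446 to 476 in normal and 1748 to 2437 in 5xFAD libraries. Only 1 of the 4 rises held when any 1 library was left out. Cspg4 (NG2) read 31.7, 7.03 and 6.66 and 235, 239.5 and 229 (4.22, SE 0.71, adjusted p = 0.00123), and Myh11, the smooth muscle myosin, 2.27, 7.03 and 3.81 and 97.3, 114 and 222 (adjusted p = 0.0239, lost without any 1 of the 6 libraries, adjusted p up to 0.106). Myh11 passed the minimum through the 5xFAD libraries alone, which set its direction. Endothelial markers rose in 2 of 14 cases (median 1.89; summed level 982 to 1613 and 2167 to 2409): Flt1, a VEGF receptor, from 31.1 to 37.1 in normal libraries to 193, 232 and 225 (2.63, adjusted p = 0.00236), and Vwf by 1.91 (lost without any 1 of the 6 libraries, adjusted p up to 0.24). Cldn5, a tight junction protein that defines brain endothelium, read 36.2, 60.3 and 122 and 294, 312 and 195 (2.00, adjusted p = 0.159), and Pecam1 overlapped between the groups. Beside the microglia markers these sums are small, and the part of such cells in other results was not tested. Of 12 astrocyte markers 1 rose and 0 fell, 12 had a positive difference and the median was 0.64, with overlapping sums of 5423 to 7113 in normal and 5682 to 9255 in 5xFAD libraries. Neither the 9 oligodendrocyte, the 8 fibroblast nor the 5 red cell markers tested gave a call (2, 1 and 0 at an unadjusted p under 0.05; 3, 2 and 0 higher in the fit of the 6 libraries). The medians of these lists were also positive, at 0.87, 0.56 and 1.85, so a positive median was not particular to vessel markers. Neuron markers passed the minimum in 2 of 12 cases.

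**Figure D3:**
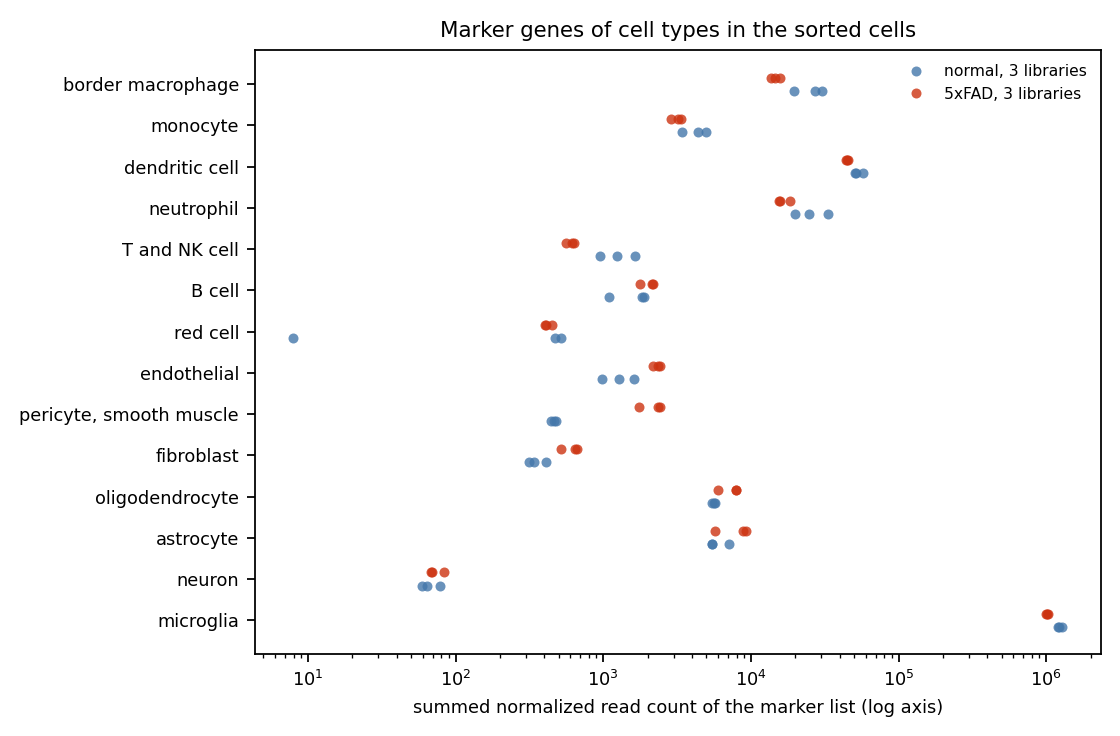
Summed normalized read counts of marker lists for 14 cell types on a log axis, with points for the 3 normal (blue) and 3 5xFAD (red) libraries. Microglia markers exceed all others; microglia, border macrophage, monocyte, dendritic, neutrophil and T and NK cell sums are lower in every 5xFAD library than in any normal one, and pericyte, endothelial, fibroblast and oligodendrocyte sums are higher.

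Receptors of inhibitory families and their ligands split into a rising and a falling set, with 8 higher and 4 lower of 21. Of all genes 3.04% rose and 1.02% fell. Pdcd1 (PD-1) read 148, 206 and 417 and 1285, 1393 and 1446 (2.55, SE 0.39, adjusted p = 0.000594), and its ligand Cd274 (PD-L1) 182, 152 and 155 and 664, 524 and 599.7 (1.86, SE 0.24, adjusted p = 0.000103). Rises were also called for Cd300lf (1.51), a lipid-binding receptor, and Cd22 (1.36), a sialic acid binding lectin. Cd200r4 (2.34) rose as well, and is listed here by its family and not as an inhibitory receptor. Siglece, another lectin of that family, fell by 0.93, from 2865, 3619 and 3846 to 1911, 1915 and 1589 (adjusted p = 0.0164, lost without normal replicates 2, 3 or S24, adjusted p up to 0.0898). The other falls were Clec12a (−1.15, lost without normal replicate 1, S22 or S23, adjusted p up to 0.0837), Clec4a2 (−0.76, lost without normal replicates 2, 3, S23 or S24, adjusted p up to 0.0977) and Cd300a (−0.36, lost without any library except normal replicate 1, adjusted p up to 0.13). Siglecf and Siglece, both with inhibitory tails, thus differed in opposite directions. Of 9 genes of the Ms4a family 2 fell, Ms4a7 and Ms4a6b (−0.59, lost without any 1 of the 6 libraries, adjusted p up to 0.101), and of 8 Fc receptor genes 1 fell, Fcrl1 (−0.66, lost without any 1 of the 6 libraries, adjusted p up to 0.124). Both counts stand beside the 1.02% of all genes that fell.

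Complement genes were called in both directions. Of 17 tested 3 rose and 1 fell, beside 4.06% of all genes called: besides Itgax, a chain of complement receptor 4, C3ar1, the C3a receptor, rose by 0.41 (lost without any library except normal replicate 2, adjusted p up to 0.111), Cd59a, an inhibitor of the membrane attack complex, read 2.27, 4.02 and 15.2 and 79.6, 41.4 and 27.4 (2.84, lost without normal replicates 1, 2, S22 or S23, adjusted p up to 0.106), and Cfp (properdin) fell by 1.37 (lost without any library except normal replicate 3, adjusted p up to 0.127). The abundant C1q genes, which start the classical pathway, overlapped between the groups: C1qa read 97068, 97844 and 97119.8 and 97276, 101947 and 95979. Tlr2 was the only call among 23 Toll-like receptor genes, a share near that of all genes. In the iron list 1 of 19 genes rose and 1 fell, beside 3.04% and 1.02% of all genes. Hmox1, haem oxygenase, rose by 0.48 (lost without any library except normal replicate 1, adjusted p up to 0.0823). Slc40a1, the iron exporter ferroportin, fell by 0.69, from 7533, 7777 and 8005 to 5161, 4877 and 4439 (adjusted p = 0.0443, lost without any 1 of the 6 libraries, adjusted p up to 0.159). The ferritin chains Fth1 and Ftl1 gave 0.68 and 0.56 (adjusted p = 0.0582 and 0.0862).

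Homeostatic microglia genes were called in both directions. Of 37 tested 32 had a negative and 5 a positive difference, 4 fell and 3 rose, beside 1.02% and 3.04% of all genes, with a median of −0.27, and 17 were called lower and 3 higher in the fit of the 6 libraries. Ecscr, a membrane protein named for endothelium but abundant in microglia, read 4939.9, 5511 and 6178 and 2826, 2820.1 and 2620.2 and fell, with no overlap (adjusted p = 0.00497). P2ry13, a receptor for ADP, read 41307, 46551 and 49735 and 33792, 32466 and 32739 (−0.47, adjusted p = 0.0164, lost without any library except normal replicate 1, adjusted p up to 0.0894), Ltc4s, leukotriene C4 synthase, fell by 0.62 (lost without normal replicate 3 or S24, adjusted p up to 0.0529) and Olfml3 fell by 0.43 (lost without any library except normal replicate 1, adjusted p up to 0.156). P2ry12, its close relative at the surface of resting microglia, read 51732, 44537 and 65571 and 41038, 37026 and 46385 (−0.37, adjusted p = 0.41). The rises in this list were Trem2, Serpine2, a protease inhibitor (1.08, adjusted p = 0.00105), and Cd34 (0.78, adjusted p = 0.00355). Among 23 transcription factors of identity Maf fell by 0.58 (lost without normal replicate 3 or S24, adjusted p up to 0.0687), and Klf2 (1.22, lost without normal replicate 1 or S24, adjusted p up to 0.0754) and Klf6 (0.91, lost without normal replicate 2 or S24, adjusted p up to 0.0747) rose, which are also on the immediate early list. These were 1 fall and 2 rises, beside 1.02% and 3.04% of all genes. Sall1, which keeps the microglial identity, read 8731, 8692 and 8386 and 6103, 6317 and 5765 without overlap (−0.51, adjusted p = 0.634, and 0.000467 in the fit of the 6 libraries). In TGF-beta signalling 1 of 27 rose, the repressor Tgif1 (0.56), and 1 fell, the matrix protein Tgfbi (−0.52, lost without normal replicate 2, S23 or S24, adjusted p up to 0.0981), shares near those of all genes. Adora1, the adenosine A1 receptor, rose by 1.83 (lost without normal replicates 1 or 2, adjusted p up to 0.0581).

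Genes tied to Alzheimer's disease were looked at by 2 lists. Of 41 mouse orthologues of risk genes 3 rose and 1 fell, beside 3.04% and 1.02% of all genes. The rises were Apoe, Trem2 and Ctsb and the fall was Ms4a6b. The list's median was 0.05, near that of all genes. Of 27 genes for the amyloid precursor, its cleavage and the breakdown of its product 4 rose and 0 fell. Aplp2, a relative of the precursor, read 3851, 3688 and 3398 and 8273, 8155 and 8356 (1.18, SE 0.10, adjusted p = 1.72e-06). Mmp12, a macrophage elastase, read 29.4, 40.2 and 40.9 and 363, 296 and 419 (3.25, SE 0.46, adjusted p = 0.000225), and the others were Ctsb and Ctsd. App itself read 4174, 4571 and 4099 and 4644, 5023 and 5223 (0.21, adjusted p = 0.379).

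Cell cycle genes gave 1 call of 35, a share near that of all genes: Cdkn1a (p21), an inhibitor of the cycle (1.19, lost without any library except S23, adjusted p up to 0.119). The list's median was nonetheless 0.62, 30 members had a positive difference, and 16 were called higher and 0 lower in the fit of the 6 libraries. Mki67, a proliferation marker, read 38.5, 20.1 and 5.71 and 62.9, 56.5 and 69.0 (1.84, adjusted p = 0.18). Proteasome subunits gave no call among 31 by limma (0 at an unadjusted p under 0.05, and 0 higher and 0 lower in the fit of the 6 libraries). Psat1, a serine synthesis enzyme, was the call among 23 genes of endoplasmic reticulum stress and amino acid supply (1.99, adjusted p = 0.00826), a share near the 3.04% of all genes that rose. Hspb1, a small heat shock protein, was the call among 16 heat shock genes (2.05, adjusted p = 0.00254), beside the same 3.04%. Ncf4, a subunit of the phagocyte NADPH oxidase, fell by 0.44 (lost without any 1 of the 6 libraries, adjusted p up to 0.139) as the call among 8, beside 1.02% of all genes that fell. The plot of members by list shows the rising lists at the top and the falling cell type markers near the bottom.

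**Figure D4:**
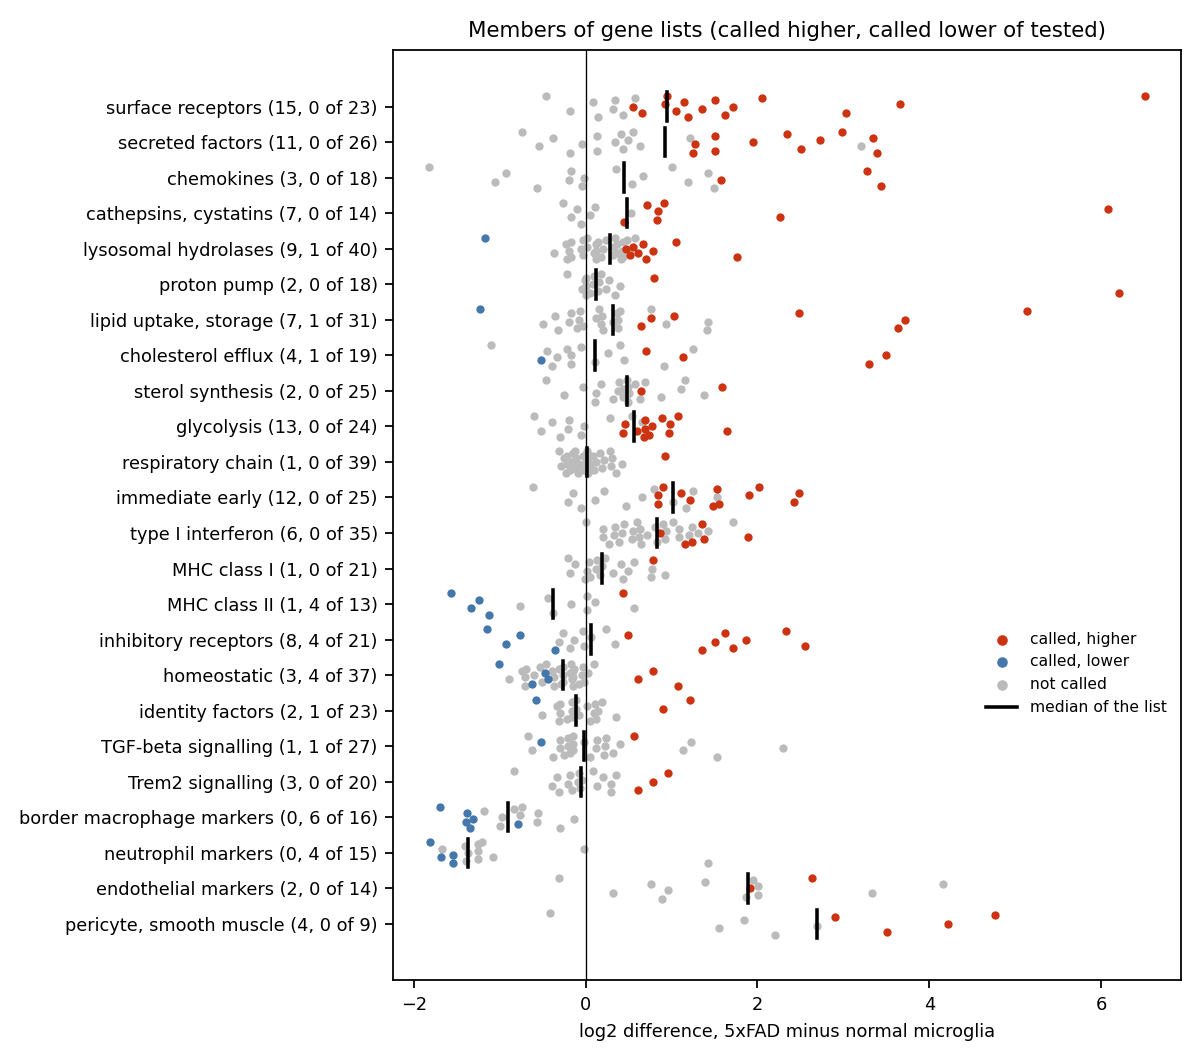
Log2 difference of 5xFAD minus normal microglia for each tested member of 24 lists, with called members in red (higher) or blue (lower), the rest in grey and a black bar at the list's median. Numbers beside each name are members called higher, called lower and tested; glycolysis and immediate early lists hold 13 and 12 rises and no fall, and MHC class II holds 4 falls and 1 rise.

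Levels in the other groups of the series are given for reference and were not compared here. Cst7 was 22576 ± 2013 (SD, n = 3) in wild-type 5xFAD microglia, 3967 ± 2071 (n = 3) in knockout 5xFAD microglia, 1654 ± 404 (n = 4) in wild-type and 648 ± 143 (n = 4) in knockout transplanted cells. Axl was 14208 ± 73.2, 3244 ± 81.2, 56392 ± 2934 and 47756 ± 11951 in the same order, and H2-Ab1 12449 ± 773, 25844 ± 3395, 98600.0 ± 36973 and 88326 ± 10979. Within the knockout 5xFAD group library S26 lay apart from the other 2 for Cst7, Csf1 and Oasl2, which widens the shared spread.

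**Figure D5:**
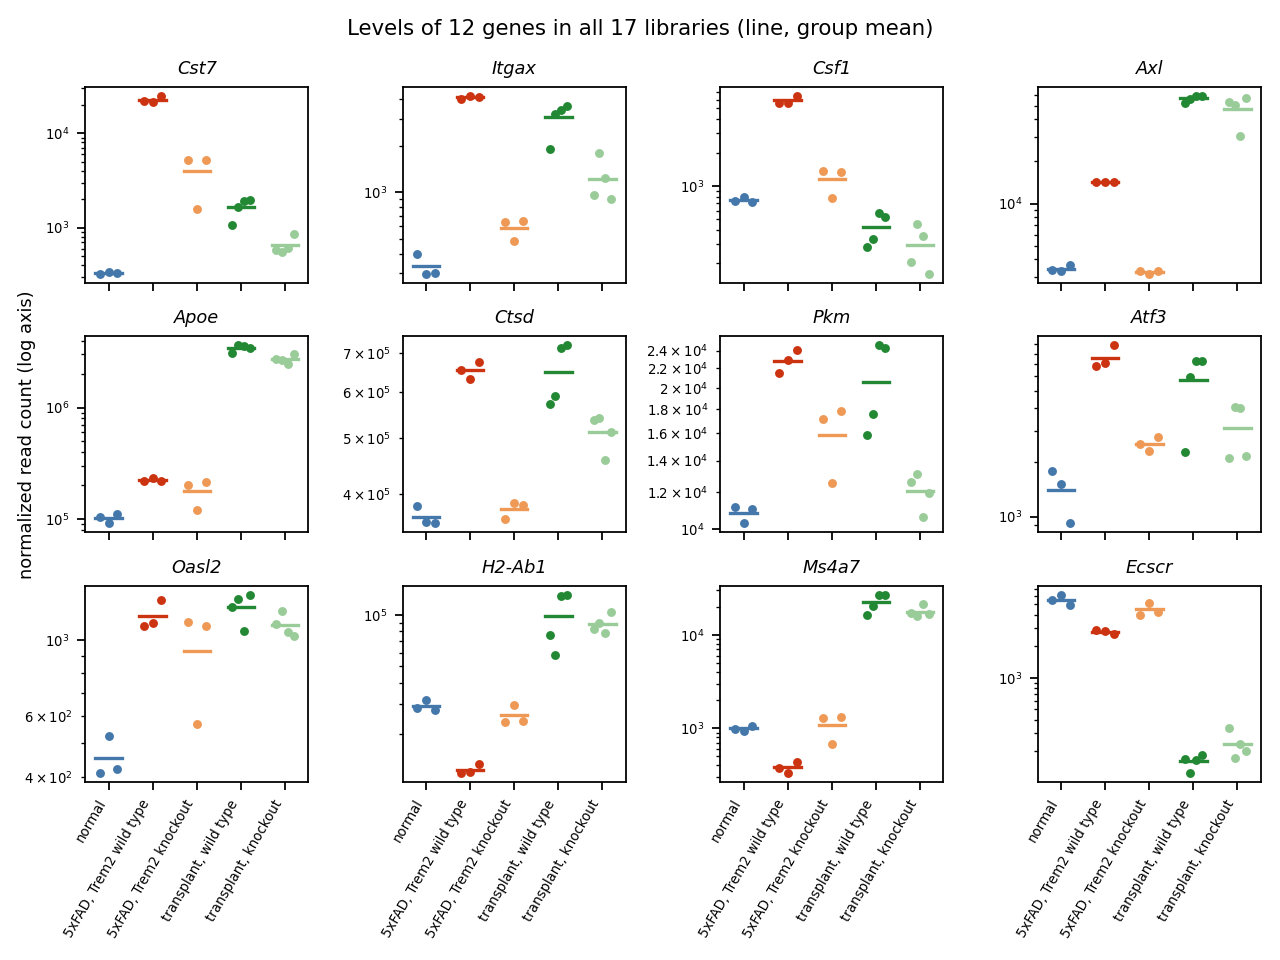
Normalized read counts of 12 genes in all 17 libraries, by group, on log axes of their own. Points are libraries and lines are group means; the red points of wild-type 5xFAD microglia lie above the blue normal points for the first 9 genes and below them for H2-Ab1, Ms4a7 and Ecscr.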

How the data were processed

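RNA of sorted brain cells was amplified with SMART-Seq v4 and sequenced on a NovaSeq, per the labels' protocols. The submitters' processing notes name bcl2fastq, STAR 2.5.2b, HTSeq, RSEM and DESeq2 with mm10 and GRCm38.p6, without the role of each. The authors deposited a table of normalized read counts (a signal, reads divided by 1 factor per library). Whole reads were recovered within 0.02 of an integer for 100.00% of values in every library, which gave the read totals and allowed edgeR and DESeq2 as alternatives. Differences were fitted with limma 3.58.1 (R 4.3.3; lmFit and eBayes with trend, two-sided) on log2(value + 1) with a mean per group over all 17 libraries, and p-values were adjusted by Benjamini-Hochberg over 11196 genes. The members and gene lists were chosen with earlier results of these data known. Genes were named by a rule: Trem2 and Tyrobp, the 12 largest called rises and falls without overlap among genes above the median level, and of each list the first 2, up to 5 with the smallest p and any called member; Spp1, Ciita, Syk, Plcg2, Inpp5d, the genes near absent in 1 group and those of the closing section were chosen after their values were seen. On simulated counts of 11395 genes the fit recovered 16% of 1.5-fold, 66% of 2-fold and 98% of 4-fold changes of this comparison. There 50 genes were changed for each fold, all with a mean of 50 or more reads, and the libraries were drawn independently. The rates therefore do not cover tested genes with lower counts, or libraries that are not independent. Promoter sequences are RefSeq's (GRCm38.p6); no promoter entry was used for some genes. Some called genes are not reported here.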

Additional observations from a re-analysis of the deposited data

How the results depend on the processing

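The number of calls depended most on the estimate of the spread. Against 454 calls (340 higher, 114 lower) with all 17 libraries, limma on the 6 libraries alone gave 1829 (1008 higher, 821 lower), and DESeq2 on recovered reads gave 766 (511 higher, 255 lower). Without knockout library S26, an alternative chosen after seeing the data, 815 genes were called (529 higher, 286 lower), among them all 454. Averaging the close libraries S22 and S23 gave 278 calls (224 higher, 54 lower). Leaving out 1 of the 6 libraries at a time gave 275 (without S22) to 336 calls (without normal replicate 3), with 218 to 263 higher and 57 to 73 lower. Members of pathway lists called, 159 in all, numbered 357 with 6 libraries and 102 to 119 when 1 library was left out. The other alternatives (pseudocounts of 0.5 and 5, no minimum, a minimum of 50, 9 microglia libraries, TMM, upper-quartile, edgeR) gave 426 to 483 calls. Similar totals did not mean the same genes. The 9 microglia libraries gave 426 calls, of which only 334 were among the 454 in the same direction, and 34 named genes lost the call. The rest of these alternatives shared 414 to 450 calls with the 454.

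Of 194 named genes called, 116 kept the call and its direction under each of the 18 alternatives that tested it and 78 lost the call under at least 1. None changed direction. Among 30 named genes that were not called, 18 were called under some alternative and 2 changed sign. C1qa went to −0.0039 with TMM and ran from −0.0107 to 0.0328 when 1 library was left out, and Inpp5d ran from −0.218 to 0.0196 in the same way. No paired analysis was possible because the 5xFAD columns all carry the same number. Depth of 16044078 reads or more per library leaves genes of a few reads, such as those near absent in normal microglia, without a measurable fold. The cause of these changes was not tested, apart from fewer libraries where some were left out.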

Other observations

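The genes in these paragraphs belong to no list above and were chosen after their values were seen. Other genes of the same themes were not counted, so a shared direction is no result. Some genes of lipid mediator synthesis, and a receptor of such a lipid, fell. Alox5ap, which presents arachidonic acid to 5-lipoxygenase, read 4702, 5045 and 4942 in normal and 2695, 2888 and 2705 in 5xFAD libraries, a change of −0.83 (SE 0.10, limma adjusted p = 8.73e-05), and with Ltc4s, described above, it serves leukotriene synthesis. Lpcat2, which makes platelet-activating factor, fell by 0.49 (lost without normal replicates 2, 3, S22 or S24, adjusted p up to 0.0965), and Ptafr, the receptor of that lipid, fell by 0.57 (lost without any 1 of the 6 libraries, adjusted p up to 0.17). Alox15, a lipoxygenase found in some macrophages, read 896, 116 and 102 and 19.6, 13.6 and 14.3 (adjusted p = 0.00306). Normal replicate 1 held most of the Alox15 signal, although the other 2 normal libraries also lay above all 5xFAD libraries.

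Some enzymes of amino acid breakdown rose. Il4i1, a secreted amino acid oxidase, read 317, 440.1 and 484 and 1871, 1697 and 2072 (2.20, SE 0.18, adjusted p = 1e-06). Kynu, an enzyme of the kynurenine pathway, was low in both groups, at 4.53, 15.1 and 15.2 and 30.5, 54.2 and 63.8 (2.10, adjusted p = 0.00292), and Haao of the same pathway rose by 0.81 (lost without any library except normal replicate 3, adjusted p up to 0.113). Some genes for heparan sulfate proteoglycans rose as well. Hpse (heparanase) read 64.6, 48.2 and 84.7 and 316, 383 and 499 (2.59, adjusted p = 0.0023), Sdc3, a syndecan core protein, 4370.2, 4926 and 4022 and 9671, 10328 and 11597 (1.25, adjusted p = 0.00306), and Hs3st1, a sulfotransferase, 15.9, 16.1 and 20.9 and 81.6, 79.8 and 77.5 (2.12, adjusted p = 0.000161). Xylt1, which starts such chains, rose by 2.12. With Sulf2 higher and Sgsh lower, as given above, these are genes of 1 polymer that differed in both directions.

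Some genes of other functions rose. Plaur, the urokinase receptor, read 573, 615 and 477 and 1863, 1811 and 2192 (1.82, SE 0.14, adjusted p = 5.13e-07). The potassium channels Kcnj2 and Kcna3 rose by 1.96 and 1.49 (adjusted p = 0.000859 and 0.00154). Hcar2, a receptor for niacin and ketone bodies, read 77.0, 152 and 229 and 821, 892 and 921 (2.65, SE 0.37, adjusted p = 0.000221).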
